A study of Mus musculus with 9 samples.

Results

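The homeostatic microglia genes are a set of transcripts that resting microglia, the resident macrophages of the brain, hold at a high level, and 9 of them, P2ry12, P2ry13, Tmem119, Sall1, Csf1r, Siglech, Gpr34, Fcrls and Cx3cr1, were followed across all hippocampal libraries of the series. The genes were chosen by name, and all 9 were found among the 47643 genes of the deposited count matrix. Microglia depend on signaling through the growth factor receptor encoded by Csf1r for survival, watch the tissue through receptors for nucleotides and for the neuronal chemokine fractalkine, and keep their identity through transcription factors such as the one encoded by Sall1 and through TGF-β signaling. When microglia react to injury, infection or neurodegeneration, several of these transcripts, P2ry12, Tmem119 and Cx3cr1 among them, are known to be reduced. Because the whole hippocampus was sequenced, fewer microglia and less of a transcript per microglia cannot be told apart in any value below.

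Hippocampal RNA was sequenced from 3 groups of 3 mice at 6 weeks of age, with 1 library per mouse. MRL/mpj mice are the untreated control strain, MRL/lpr mice have, on that background and in every cell, the lpr mutation in Fas and spontaneously develop lupus, and MRL/lpr+MSC mice are of the same lupus-prone strain and received mesenchymal stem cells, with neither dose nor route among the labels. The labels of the MRL/lpr group read untreated, whereas the title of the series names PBS for it, and the labels name C57BL/6 as the strain of all 9 libraries, whereas the study and the title name the MRL strains used here. The study reported no MRL/lpr+MSC group.

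A table supplied with the study has 3 MRL/lpr columns, and 100% of the genes compared in them were, within 0.1%, a constant multiple of the counts in 1 library each of those labelled MRL/lpr+MSC. No other library reached more than 0.725%. The labels and that table thus differ on which libraries are MRL/lpr, and which is right was not settled here. The labels are used as deposited, and the contrast of both MRL/lpr groups with MRL/mpj mice does not depend on them. Total counts ranged from 19475804 to 26912031 per library, and CPM values are counts divided by that total after TMM scaling, with factors of 0.947 to 1.06. The limit that a count of 0 allows, 3 counts, was 0.111 to 0.154 CPM by library on the plain total, without TMM, and covers counting error only. The lowest count of any of the 9 genes in any library was 134. The summed CPM of 8 choroid plexus genes was 9562 in MRL/lpr replicate 2 and 4838 in MRL/lpr+MSC replicate 2, against 105 to 1082 in the other 7 libraries, and the contrast of both groups is therefore also given without these 2 libraries. The 7 T cell genes summed to 6.24 to 19.4 CPM in MRL/lpr mice, 2.15 to 3.81 in MRL/lpr+MSC mice and at most 2.10 in MRL/mpj mice, with 4 of the 7 at 0 in each MRL/mpj library.

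All 9 genes were well expressed in hippocampal tissue. By FPKM, which divides the count by gene length and library size and so allows genes to be ranked against each other, the level in MRL/mpj mice was highest for P2ry12 at 21.5 ± 0.713 FPKM (SD, n = 3) and second highest for Csf1r at 18.4 ± 1.94. P2ry12 was above Csf1r in each MRL/mpj library. Cx3cr1 followed at 15.1 ± 0.246 FPKM and Tmem119 at 13.3 ± 0.990. Fcrls at 8.85 ± 2.82 FPKM and Gpr34 at 8.49 ± 1.04 differed by less than their spread. P2ry13 had 5.95 ± 0.706 FPKM, and Sall1 at 4.39 ± 0.341 and Siglech at 4.32 ± 0.460 did not differ beyond their spread. In the 6 libraries of both MRL/lpr groups the ranking changed at the top and at the bottom, with Csf1r leading at 17.8 ± 1.80 FPKM (SD, n = 6), P2ry12 second at 14.7 ± 1.88, and Fcrls last at 2.90 ± 0.423.

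In the hippocampus of MRL/lpr mice, 3 of the 9 homeostatic genes were lower than in MRL/mpj mice and none was higher. These were Fcrls, which was 3.06-fold lower, and the receptor genes P2ry12 and Cx3cr1, which were 1.48-fold and 1.37-fold lower. Csf1r, Tmem119, Siglech, P2ry13, Gpr34 and Sall1 did not pass the test. With any 1 MRL/mpj library left out, 0 of the 9 genes passed in this comparison. In the libraries of mice given mesenchymal stem cells the 9 genes differed from MRL/lpr mice by -0.10 to 0.10 on the log2 scale, and none passed.

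Here a gene passed when its adjusted p was under 0.05 by limma voom with Benjamini-Hochberg adjustment over all genes tested, and it was called differentially expressed when it also changed at least 1.5-fold, the threshold of the study. All 9 genes were tested in every comparison. For MRL/lpr mice, the 3 genes lower than in MRL/mpj mice stand against a background of 4.68% of 16697 genes that passed and were lower, while 4.44% passed and were higher. Fcrls alone was differentially expressed, against 2.27% of all genes that were lower by that rule. The median log2 fold change was -0.17 over the 9 genes and 0.03 over all genes tested. In MRL/lpr+MSC against MRL/mpj mice, Fcrls and Cx3cr1 passed, both lower, where 2.56% of 16196 genes were lower and 2.33% were higher. Fcrls was again the 1 differentially expressed member, against 1.5% of all genes, and the medians were -0.24 over the 9 genes and 0.00339 over all genes tested. These 2 comparisons share the MRL/mpj libraries. With both MRL/lpr groups combined, P2ry12, Fcrls and Cx3cr1 passed, where 4.7% of 17113 genes were lower and 3.95% were higher, and Fcrls was differentially expressed, against 2.21% of all genes. The medians were -0.21 over the 9 genes and 0.02 over all genes tested.

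**Figure D1:**
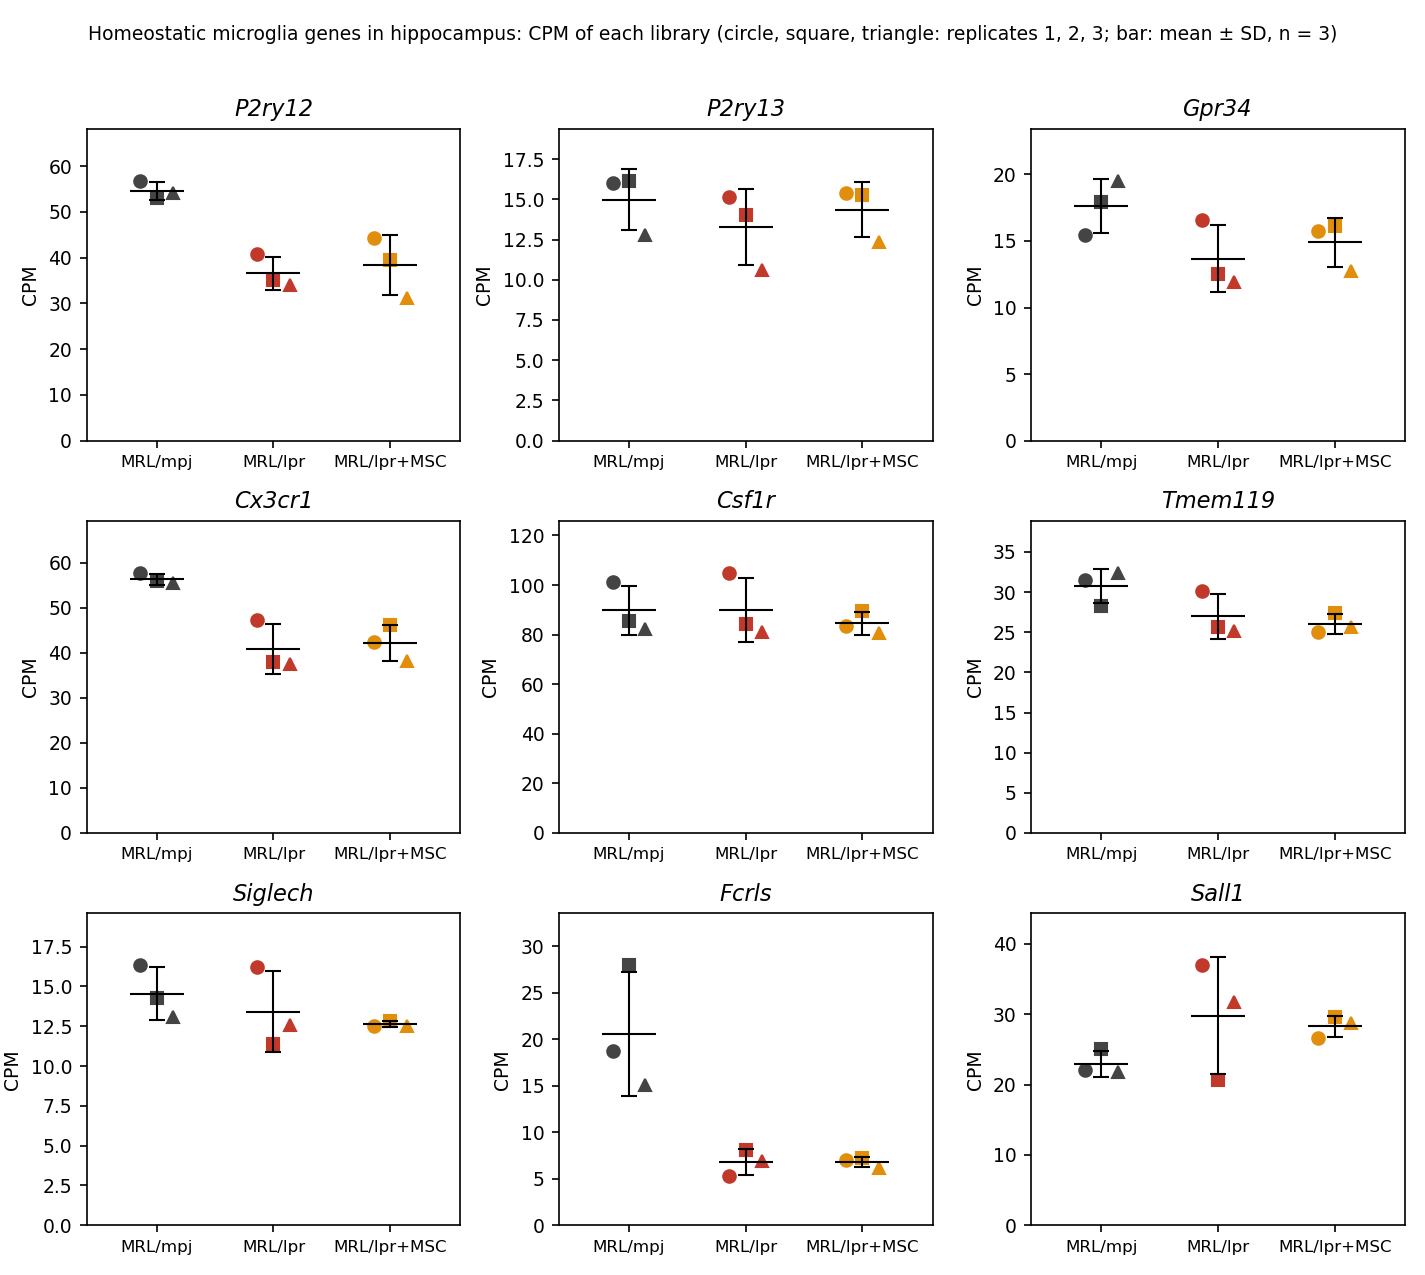
Each panel plots 1 homeostatic gene, with CPM on the y axis from 0 and the 3 groups on the x axis. Circles, squares and triangles are replicates 1, 2 and 3, and bars give the mean ± SD (n = 3). For P2ry12, Cx3cr1 and Fcrls all 6 libraries of the MRL/lpr groups lie below the 3 MRL/mpj libraries, whereas the groups overlap for the remaining 6 genes when both MRL/lpr groups are combined.

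P2ry12 (ENSMUSG00000036353, GRCm38 chromosome 3, 59216272 to 59262871, minus strand) encodes the ADP receptor by which microglia extend processes toward released nucleotides. Its level was 56.8, 53.0 and 54.0 CPM in MRL/mpj controls, 40.7, 35.1 and 34.0 in MRL/lpr mice, and 44.3, 39.6 and 31.2 in MRL/lpr+MSC mice. The lowest control library was thus above the highest library of either MRL/lpr group. Against MRL/mpj mice, the log2 fold change was -0.56 in MRL/lpr mice (standard error 0.09, limma voom adjusted p = 0.0156) and -0.54 in MRL/lpr+MSC mice (standard error 0.12, limma voom adjusted p = 0.0528), so the second comparison missed the threshold. With both groups together it was -0.55 (95% confidence interval -0.80 to -0.31, limma voom adjusted p = 0.0176), a 1.47-fold lower level. That call was lost when any 1 MRL/mpj library was left out, at a limma voom adjusted p of 0.0830, 0.0654 and 0.0768 without replicate 1, 2 and 3, with log2 fold changes of -0.52, -0.57 and -0.56. The MRL/lpr comparison lost it in the same way (limma voom adjusted p = 0.0770, 0.0697 and 0.0763), and the MRL/lpr+MSC comparison passed without MRL/lpr+MSC replicate 1 (log2 fold change -0.64, limma voom adjusted p = 0.0109). The call of both groups held without the 2 libraries highest in choroid plexus genes (log2 fold change -0.56, limma voom adjusted p = 0.0427).

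P2ry13 (ENSMUSG00000036362, chromosome 3, 59207892 to 59210882, minus strand) encodes a related ADP receptor, and both genes lie within Med12l on the opposite strand. P2ry13 had 16.0, 16.2 and 12.8 CPM in MRL/mpj controls, 15.1, 14.0 and 10.6 in MRL/lpr mice, and 15.4, 15.3 and 12.4 in MRL/lpr+MSC mice. The 3 groups overlapped. The log2 fold change of both MRL/lpr groups against MRL/mpj mice was -0.13 (95% confidence interval -0.45 to 0.19, limma voom adjusted p = 0.573). Of the exonic bases of P2ry12, 0.353% are shared with Med12l and of those of P2ry13 none, and no source used here says whether reads were counted by strand. Med12l itself had a log2 fold change of -0.08 in the same contrast (limma voom adjusted p = 0.582).

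P2ry12 passed and its neighbour P2ry13 did not, so sequence before their RefSeq start sites (GRCm38.p6), and before that of Fcrls, is shown here, with matches to GAGGAA and GGAAGT, read on both strands, in capitals. These are overlapping parts of the sequence that PU.1 prefers. Stretches annotated as untranslated in GENCODE were left out, except for 30 bases around the match of P2ry12, where the annotation belongs to Med12l on the opposite strand. The Fcrls stretch lies within the gene as GENCODE bounds it. Fcrls had 2 matches, and the other, GGAAGT in reverse 75 to 70 bases before the start, lies outside the stretch shown.
P2ry12, chr3:59263019-59263048, minus strand: agctaacaagaaGGAAGTtccccagtgaca
P2ry13, chr3:59210883-59211132, minus strand: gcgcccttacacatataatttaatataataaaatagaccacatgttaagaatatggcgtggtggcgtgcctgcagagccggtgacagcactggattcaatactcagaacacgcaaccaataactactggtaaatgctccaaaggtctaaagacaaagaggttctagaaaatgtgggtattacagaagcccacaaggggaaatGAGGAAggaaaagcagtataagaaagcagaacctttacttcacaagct
Fcrls, chr3:87263600-87263677, minus strand: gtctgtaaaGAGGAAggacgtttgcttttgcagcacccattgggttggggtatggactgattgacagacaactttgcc
The promoter table matched 6 of the 9 genes, P2ry12, P2ry13, Fcrls, Siglech, Sall1 and Cx3cr1. In the 250 bases before the start, GAGGAA was present in 23.3% and GGAAGT in 19.7% of 32851 promoters, and 36.7% held either. Of the 6 genes, 5 held either and Cx3cr1 held neither, so a match was found both in genes that passed and in genes that did not. These 6 genes have 8 promoters, so this count is by gene while the shares are by promoter. A match describes letters in this window and is not a measured binding site.

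Gpr34 (ENSMUSG00000040229, chromosome X, 13632089 to 13640858, plus strand, in an intron of Cask) encodes a receptor for lysophosphatidylserine. Its level was 15.5, 18.0 and 19.5 CPM in MRL/mpj controls, 16.6, 12.5 and 11.9 in MRL/lpr mice, and 15.7, 16.2 and 12.8 in MRL/lpr+MSC mice. Replicate 1 of MRL/lpr lay among the controls, and 3 of the 6 libraries of the MRL/lpr groups were above the lowest control. The log2 fold change of both groups against MRL/mpj mice was -0.31 (95% confidence interval -0.61 to 0.00189, limma voom adjusted p = 0.180).

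Cx3cr1 (ENSMUSG00000052336, chromosome 9, 119901616 to 120069879, minus strand) encodes the receptor for fractalkine, the chemokine that neurons present to microglia. Its CPM was 57.7, 55.9 and 55.4 in MRL/mpj controls, 47.3, 38.0 and 37.4 in MRL/lpr mice, and 42.5, 46.1 and 38.1 in MRL/lpr+MSC mice. The control libraries lay within a narrow band, and every library of the MRL/lpr groups was below it. As annotated, Cx3cr1 overlaps 9 other genes and shares 1.73% of its exonic bases, all with the antisense Gm33858. The log2 fold change against MRL/mpj mice was -0.45 in MRL/lpr mice (standard error 0.10, limma voom adjusted p = 0.0397) and -0.43 in MRL/lpr+MSC mice (standard error 0.09, limma voom adjusted p = 0.0388). Both groups together gave -0.44 (95% confidence interval -0.65 to -0.24, limma voom adjusted p = 0.0218), a 1.36-fold lower level. As for P2ry12, the call needed all 3 controls, with a limma voom adjusted p of 0.0953, 0.0818 and 0.0883 without MRL/mpj replicate 1, 2 and 3 and log2 fold changes of -0.43, -0.45 and -0.46. In the MRL/lpr comparison it was lost without MRL/mpj replicate 1, 2 or 3 (limma voom adjusted p = 0.138, 0.124 and 0.139) and without MRL/lpr replicate 3 (limma voom adjusted p = 0.0538). In the MRL/lpr+MSC comparison it was lost without MRL/mpj replicate 1, 2 or 3 (limma voom adjusted p = 0.145, 0.123 and 0.134) and without MRL/lpr+MSC replicate 3 (limma voom adjusted p = 0.103). That call was also lost with no filter on low counts, with all 9 libraries in 1 fit and with the replicate number as a block (limma voom adjusted p = 0.0511, 0.0716 and 0.0834). Without the 2 libraries highest in choroid plexus genes the log2 fold change of both groups was -0.46 (limma voom adjusted p = 0.0363).

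Csf1r (ENSMUSG00000024621, chromosome 18, 61100598 to 61132149, plus strand) encodes the receptor for the growth factors CSF1 and IL-34. It was at 101, 85.7 and 82.4 CPM in MRL/mpj controls, 105, 84.3 and 81.0 in MRL/lpr mice, and 83.6, 89.7 and 80.6 in MRL/lpr+MSC mice. The groups covered the same range. The log2 fold change was 0.01 in MRL/lpr mice, where its sign turned with median-of-ratios scaling (-0.01) and with upper-quartile scaling (-0.07), and -0.04 with both groups together (95% confidence interval -0.27 to 0.19, limma voom adjusted p = 0.818). The exons of Hmgxb3 on the opposite strand share 15.1% of the exonic bases of Csf1r, so reads there cannot be assigned without strand. Hmgxb3 had a log2 fold change of -0.30 in the contrast of both groups (limma voom adjusted p = 0.0593).

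Tmem119 (ENSMUSG00000054675, chromosome 5, 113793729 to 113800516, minus strand) encodes a membrane protein used as a marker that separates microglia from other macrophages. Its CPM was 31.5, 28.3 and 32.4 in MRL/mpj controls, 30.2, 25.7 and 25.1 in MRL/lpr mice, and 25.0, 27.4 and 25.7 in MRL/lpr+MSC mice. Of the 6 libraries of the MRL/lpr groups, MRL/lpr replicate 1 alone was above a control library. The log2 fold change of both groups was -0.21 (95% confidence interval -0.39 to -0.02), with an unadjusted p of 0.0352 and a limma voom adjusted p of 0.148.

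Siglech (ENSMUSG00000051504, chromosome 7, 55768178 to 55778925, plus strand) encodes a sialic acid-binding lectin of microglia and plasmacytoid dendritic cells. Its level was 16.3, 14.3 and 13.1 CPM in MRL/mpj controls, 16.3, 11.4 and 12.6 in MRL/lpr mice, and 12.5, 12.8 and 12.5 in MRL/lpr+MSC mice. The groups overlapped in the MRL/lpr comparison and were separated, by a small margin, in the MRL/lpr+MSC comparison. With both groups together the log2 fold change was -0.16 (95% confidence interval -0.45 to 0.13, limma voom adjusted p = 0.440). Of 6 other genes listed for plasmacytoid dendritic cells, 5 could be tested in that contrast and none passed, with a median log2 fold change of 0.51. In the MRL/lpr comparison none of 5 passed either, but 4 were positive and 1 negative, with a median of 1.82. The part of these cells in the Siglech value was not tested.

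Fcrls (ENSMUSG00000015852, chromosome 3, 87250758 to 87263738, minus strand) encodes a scavenger receptor of the Fc receptor-like family that is used as a microglial marker in mice. It had 18.7, 28.0 and 15.1 CPM in MRL/mpj controls, 5.27, 8.08 and 6.96 in MRL/lpr mice, and 7.03, 7.20 and 6.16 in MRL/lpr+MSC mice. Every library of the MRL/lpr groups was far below every control library, and the controls themselves varied more, relative to their mean, than for any other of the 9 genes, with replicate 2 the highest. The log2 fold change against MRL/mpj mice was -1.61 in MRL/lpr mice (standard error 0.30, limma voom adjusted p = 0.0277) and -1.59 in MRL/lpr+MSC mice (standard error 0.28, limma voom adjusted p = 0.0283). Both groups together gave -1.60 (95% confidence interval -2.09 to -1.11, limma voom adjusted p = 0.00387), a 3.03-fold lower level. In this contrast Fcrls passed under all 17 alternatives, with log2 fold changes from -1.79 to -1.34, the latter without MRL/mpj replicate 2 (limma voom adjusted p = 0.00691). With the 6 libraries of the MRL/lpr comparison alone, the call was lost without MRL/mpj replicate 1, 2 or 3 (limma voom adjusted p = 0.0932, 0.0547 and 0.0574) and without MRL/lpr replicate 1 (limma voom adjusted p = 0.0909). In the MRL/lpr+MSC comparison it was lost without MRL/mpj replicate 1 or MRL/lpr+MSC replicate 2 or 3 (limma voom adjusted p = 0.0982, 0.0858 and 0.0987).

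Sall1 (ENSMUSG00000031665, chromosome 8, 89027235 to 89044162, minus strand) encodes a zinc finger transcription factor that in the adult brain marks microglia among the blood-derived and resident macrophages. Its CPM was 22.0, 25.1 and 21.7 in MRL/mpj controls, 37.0, 20.7 and 31.8 in MRL/lpr mice, and 26.6, 29.5 and 28.7 in MRL/lpr+MSC mice. Of the 9 genes it was the 1 with a positive log2 fold change in the contrast of both groups, 0.32 (95% confidence interval -0.08 to 0.72, limma voom adjusted p = 0.266), and MRL/lpr replicate 2 was the 1 library of those groups not above every control. Without that library the value was 0.44 and passed (limma voom adjusted p = 0.0223), and in the MRL/lpr comparison it was 0.58 (limma voom adjusted p = 0.0221). Without both libraries highest in choroid plexus genes, Sall1 did not pass in the contrast of both groups (log2 fold change 0.42, limma voom adjusted p = 0.0569). MRL/lpr replicate 2 is the library highest in these genes, whose part in the Sall1 value was not tested.

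**Figure D2:**
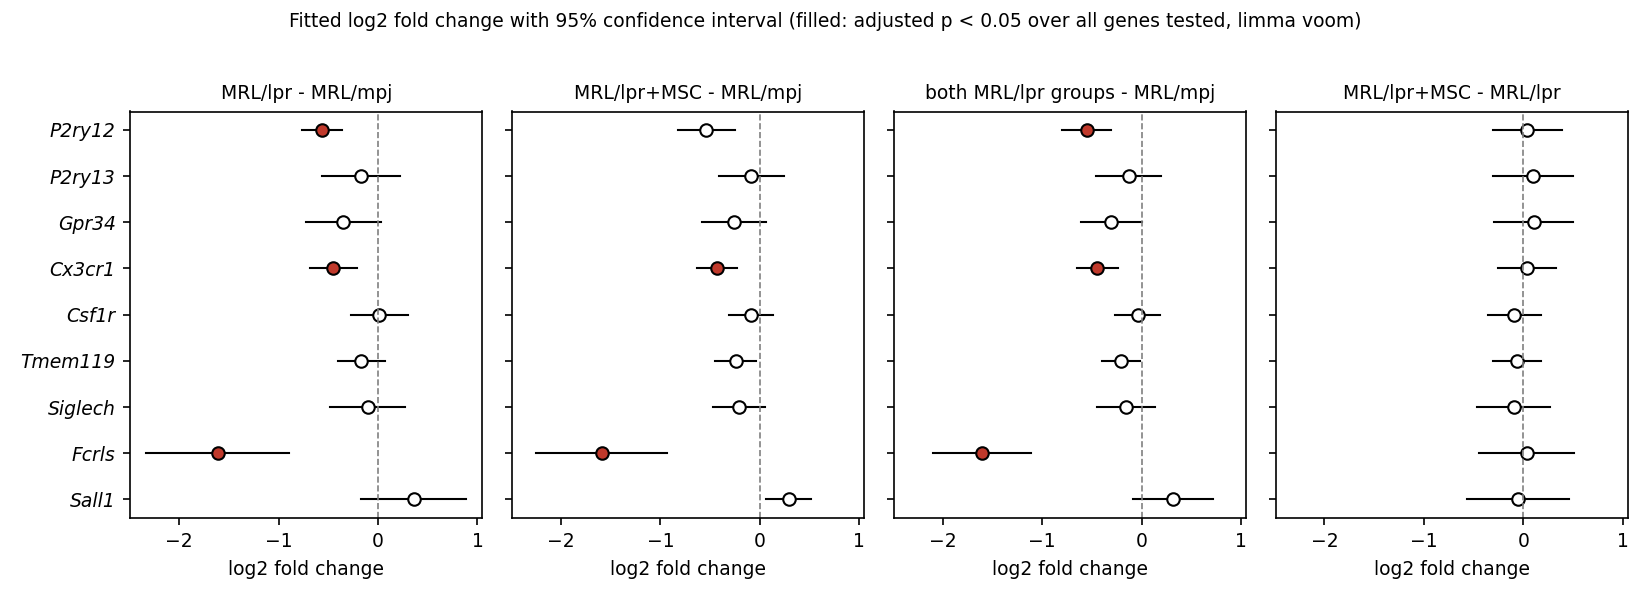
The 4 panels give the fitted log2 fold change of each homeostatic gene on the x axis, with the 95% confidence interval as a line and filled points for an adjusted p under 0.05. Fcrls is the farthest from 0 in each comparison with MRL/mpj mice, at -1.61, -1.59 and -1.60, and all 9 intervals in the comparison of MRL/lpr+MSC with MRL/lpr mice cross 0.

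Separation of single libraries was counted as well. Comparing MRL/lpr with MRL/mpj, 3 of the 9 genes had every MRL/lpr library below every control library, where 18.8% of all genes tested did. In MRL/lpr+MSC against MRL/mpj mice 5 of the 9 did, P2ry12, Tmem119, Siglech, Fcrls and Cx3cr1, against 13.6% of all genes, and Sall1 was above every control library, as were 15.8% of all genes. With all 6 libraries of the MRL/lpr groups, 3 of the 9 genes lay below every control library, against 8.7% of all genes.

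The comparison of MRL/lpr+MSC with MRL/lpr mice asks whether the stem cells changed these genes within the lupus-prone strain. None of the 9 genes passed, and 0% of 16758 genes passed by limma voom in either direction. At an unadjusted p under 0.05, none of the 9 genes and 646 of all genes were found, and limma-trend also called 0 genes. The lowest log2 fold change was that of Siglech, -0.10, and the highest that of Gpr34, 0.10. For the genes that separated MRL/lpr from MRL/mpj mice, the difference was 0.04 for P2ry12 (95% confidence interval -0.31 to 0.39), 0.04 for Cx3cr1 (-0.26 to 0.33) and 0.03 for Fcrls (-0.44 to 0.51). The upper bound for Fcrls, 0.51, is below the size of the -1.61 that separated MRL/lpr from MRL/mpj mice, across its interval (-2.33 to -0.89). For P2ry12 and Cx3cr1 the intervals of that distance were -0.77 to -0.36 and -0.69 to -0.22. Their upper bounds here fall within those sizes, so neither was shown to be below its distance. The 2 comparisons share the MRL/lpr libraries. If the labels of MRL/lpr and MRL/lpr+MSC mice were exchanged, the sign of each difference between them would turn.

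Since Csf1r did not separate the groups, each other gene was also divided by Csf1r within its own library, as a description with no test. The ratio of CPM of P2ry12 to that of Csf1r was 0.562 to 0.655 in MRL/mpj mice and 0.387 to 0.529 in the 6 libraries of the MRL/lpr groups. For Cx3cr1 these ranges were 0.571 to 0.672 and 0.451 to 0.514. The ratio of Fcrls to Csf1r was 0.183 to 0.327 in MRL/mpj mice and 0.0502 to 0.0958 in the MRL/lpr groups. These 3 ratios did not overlap between MRL/mpj mice and the MRL/lpr groups, and neither did that of Siglech, which was 0.159 to 0.167 against 0.135 to 0.156. The ratios of P2ry13, Gpr34, Tmem119 and Sall1 overlapped. The share of all genes whose ratio to Csf1r would separate the groups was not computed. The separations therefore have no background beside them, and the CPM of Siglech itself overlapped between the groups.

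**Figure D3:**
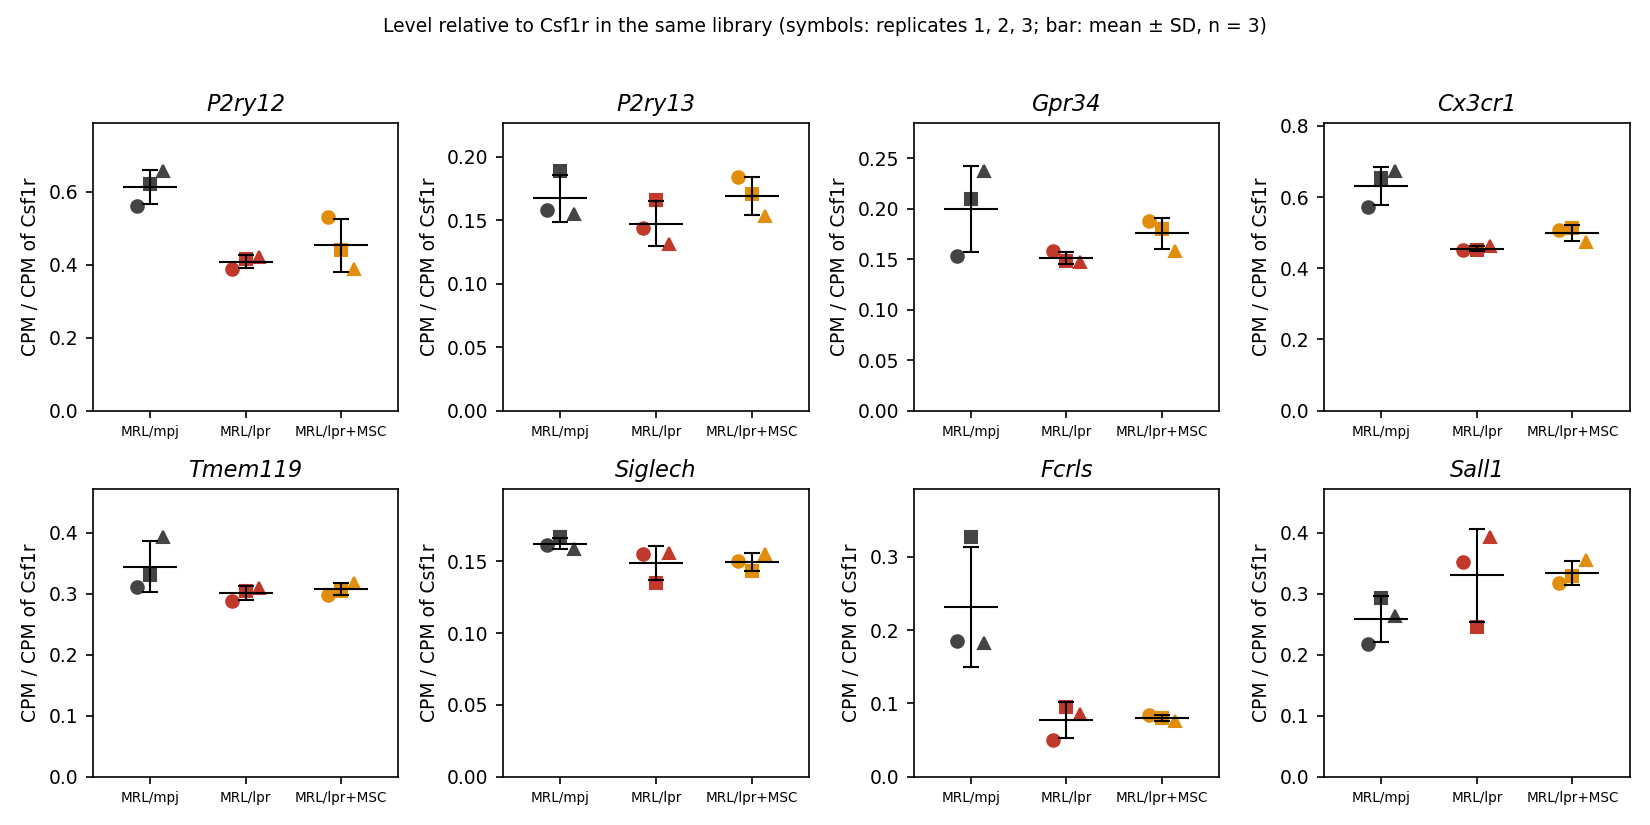
Each panel plots the CPM of 1 homeostatic gene divided by the CPM of Csf1r in the same library (y axis, from 0) for the 3 groups, with symbols for replicates 1, 2 and 3 and bars for mean ± SD (n = 3). The MRL/lpr libraries have Cx3cr1 ratios of 0.451 to 0.462, below the MRL/mpj range of 0.571 to 0.672.

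Across the 9 libraries, the log2 CPM of P2ry12 and Cx3cr1 had a Pearson r of 0.95, the highest among the 36 pairs of the 9 genes. These libraries share the contrast between the strains, and within the 6 libraries of the MRL/lpr groups the r of this pair was 0.76. There, Cx3cr1 followed Gpr34 (r = 0.97) and Tmem119 followed Csf1r (r = 0.97), while Fcrls had a negative r with each of the other 8 genes, from -0.90 with Siglech to -0.06 with P2ry13. Sall1, which had an r of -0.45 with P2ry12 over 9 libraries, had 0.85 with Siglech within the 6. The 10 other genes with a pattern most like the mean of the 9, after each was scaled to unit spread, included Ints6l (r = 0.96 over 9 libraries), Ankrd28 (r = 0.95), Pycard (r = 0.93), which encodes the inflammasome adaptor ASC, and Havcr2 (r = 0.91), which encodes the immune checkpoint receptor TIM-3. The rest were 9430053O09Rik, Ccdc62, Ankzf1, Ccdc138, Sec11c and Arhgap23, and Pycard had a mean of only 0.819 CPM. For the 21 other microglia genes described next, the median r with that mean of the 9 was 0.21 over 9 libraries (range -0.32 to 0.84). Each r is a description over libraries that differ in depth and, where all 9 are used, in strain.

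The homeostatic genes were set beside other genes that microglia express. Of 21 such genes, all tested in the contrast of both MRL/lpr groups with MRL/mpj mice, 1 passed and was lower. Of all 17113 genes tested there, 4.7% passed and were lower, and 3.95% passed and were higher. The median log2 fold change was 0.06 over the 21 genes and 0.02 over all genes. The gene that passed was Mertk, a receptor for the engulfment of dying cells, which had 49.0 ± 5.03 CPM in the 3 control libraries (mean ± SD) and fell to 32.6 ± 4.15 in the 6 libraries of the MRL/lpr groups, with a log2 fold change of -0.59 (limma voom adjusted p = 0.0197). Aif1, which encodes IBA-1, had -0.15 (limma voom adjusted p = 0.568). Ptprc, the CD45 gene of all leukocytes, had 1.12 (limma voom adjusted p = 0.179), with 15.9 ± 7.40 CPM in MRL/lpr mice, 5.11 ± 1.56 in MRL/lpr+MSC mice and 3.95 ± 0.28 in MRL/mpj mice (SD, n = 3 each).

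Among 10 transcription factor genes that act in microglia, 2 passed in the contrast of both groups, both lower, with a median of -0.22. Of all genes tested there, 4.7% passed and were lower. Cebpa, at 28.6 ± 4.11 CPM in the controls, fell to 15.7 ± 3.67 in the MRL/lpr groups, with a log2 fold change of -0.88 (limma voom adjusted p = 0.0163). Bhlhe41 fell from 46.7 ± 1.25 to 33.0 ± 5.13 CPM (log2 fold change -0.51, limma voom adjusted p = 0.0412). Spi1, which encodes PU.1, the factor that myeloid cells require, was at 4.31 ± 0.53 and 4.94 ± 1.23 CPM (log2 fold change 0.18, limma voom adjusted p = 0.631). Irf8, which encodes an interferon regulatory factor, did not pass either, at 0.63 on the log2 scale (limma voom adjusted p = 0.219). In MRL/mpj replicate 1, Mef2a, Mef2c and Smad3 of this list were at 261, 204 and 106 CPM, against 4.90 for Spi1. In whole tissue the median of the list need not reflect microglia.

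Among the ligand genes of Csf1r and Cx3cr1, Cx3cl1, which encodes fractalkine, passed as lower in the contrast of both groups, as Cx3cr1 did. No ligand gene passed in the MRL/lpr+MSC comparison, where Cx3cr1 did. With both groups together, Cx3cl1 was at 604 ± 40.6 CPM in the controls and at 465 ± 18.6 in the MRL/lpr groups (log2 fold change -0.37, limma voom adjusted p = 0.00926). The genes for the Csf1r ligands, Csf1 and Il34, did not pass, at 0.16 and -0.31 on the log2 scale (limma voom adjusted p = 0.487 and 0.532). Of 10 genes of the TGF-β pathway, Tgfbr2, a receptor chain, passed and was higher, from 20.5 ± 0.957 to 35.5 ± 8.26 CPM (log2 fold change 0.76, limma voom adjusted p = 0.0381). Nrros, whose protein holds latent TGF-β1 on microglia, had -0.75 (limma voom adjusted p = 0.0761), and Tgfb1 had -0.02 (limma voom adjusted p = 0.965). Of 6 genes of purine and lysophosphatidylserine metabolism, set beside P2ry12, P2ry13 and Gpr34, none passed in this contrast. Abhd12, which degrades lysophosphatidylserine, passed as lower when MRL/lpr was compared with MRL/mpj (log2 fold change -0.31, limma voom adjusted p = 0.0363).

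In disease models microglia lose homeostatic transcripts while they gain a second set, the disease-associated genes. Of 20 such genes, 19 were tested in the contrast of both groups and 1 passed, B2m, the light chain of MHC class I, which is expressed by most cells. It was higher, with a log2 fold change of 1.46 (limma voom adjusted p = 0.0124). Of all genes tested there, 3.95% passed and were higher. In the MRL/lpr comparison 3 of 18 passed, B2m, Spp1 and Clec7a, all higher, where 4.44% of all genes passed and were higher. There 16 of the 18 had positive log2 fold changes and 2 negative ones, with a median of 0.28. In the MRL/lpr+MSC comparison 2 of 16 passed, B2m higher and Gpnmb lower, where 2.33% of all genes were higher and 2.56% lower. Of these 16, 10 were positive and 6 negative. Between MRL/lpr+MSC and MRL/lpr mice none of 18 passed, with 17 negative and 1 positive. Apoe and Cd68, with log2 fold changes of 0.15 and 0.01 in the contrast of both groups, did not pass (limma voom adjusted p = 0.410 and 0.986). The median of the 19 was 0.12. None of the 3 C1q chain genes passed in any comparison. Their log2 fold changes were 0.32 to 0.44 in MRL/lpr mice and -0.28 to -0.13 in MRL/lpr+MSC mice, both against MRL/mpj mice.

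**Figure D4:**
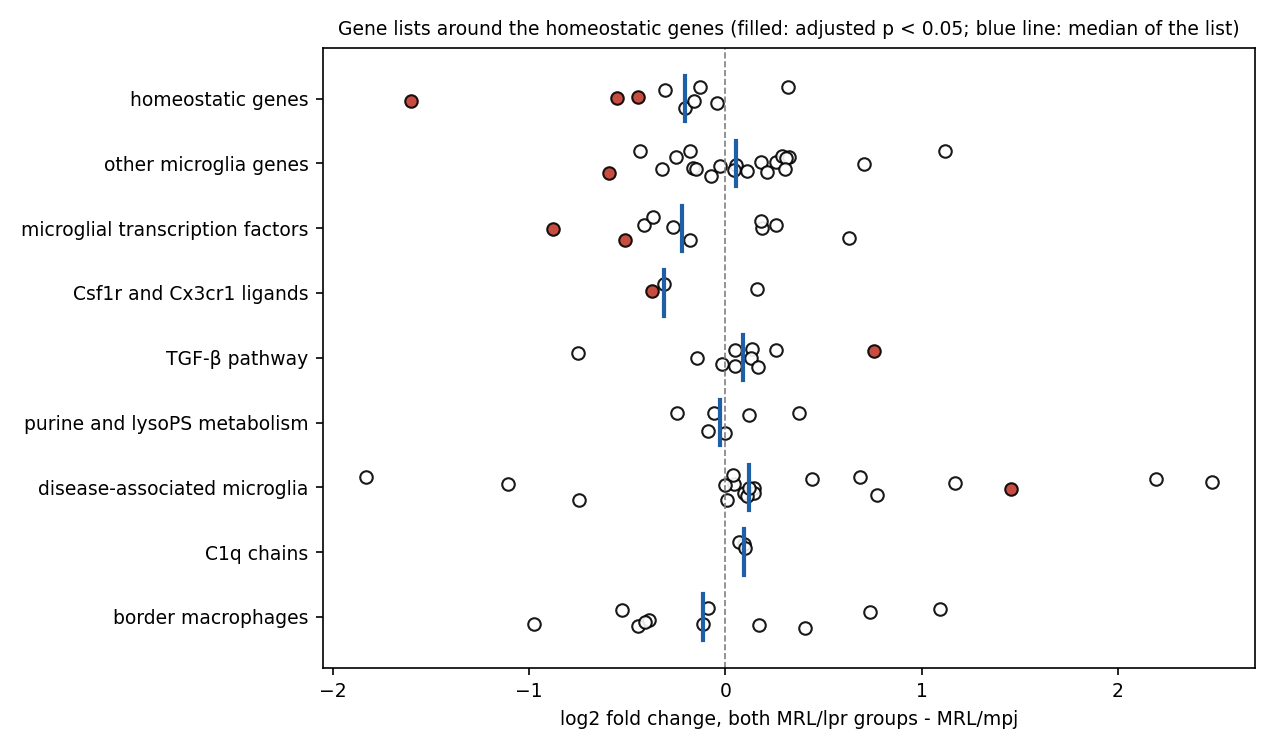
Each point is 1 gene of a list, with its log2 fold change in both MRL/lpr groups against MRL/mpj mice on the x axis, filled where the adjusted p was under 0.05, and the blue line is the median of the list. Points are spread vertically within a list for visibility alone. The median of the homeostatic genes was -0.21 and that of the other microglia genes 0.06.

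Marker genes of other macrophages and leukocytes were read in the same libraries. Of 11 genes of border-associated macrophages, which share Csf1r and Cx3cr1 with microglia, none passed in any comparison, and their summed CPM was 33.0 to 60.04 in the MRL/mpj group, 37.7 to 47.7 in the MRL/lpr group and 20.04 to 45.1 in the MRL/lpr+MSC group. Monocyte and neutrophil genes summed to 2.77 to 8.74 CPM in MRL/mpj mice, 4.97 to 19.9 in MRL/lpr mice and 1.26 to 27.1 in MRL/lpr+MSC mice, and 0 of the 7 tested in the contrast of both groups passed. Of the 7 T cell genes, 6 passed as higher in MRL/lpr mice (Cd3d, Cd3e, Cd3g, Cd8a, Cd2 and Cd5) and 3 in both groups together (Cd3g, Cd8a and Cd2). Over all genes, 4.44% passed as higher in MRL/lpr mice and 3.95% in both groups together. Of 4 B cell genes tested, 2 passed as higher in MRL/lpr mice, Cd79a among them, and none passed in both groups together. Jchain of the same list passed as higher in the MRL/lpr+MSC comparison. Of 8 neuronal genes, Syt1 passed in the MRL/lpr comparison as lower (log2 fold change -0.53, limma voom adjusted p = 0.0241), and no neuronal gene passed in the contrast of both groups. Of 7 endothelial genes Cldn5 and Kdr passed there, both higher, at 0.80 and 1.32. No gene of the astrocyte (8), oligodendrocyte (7), choroid plexus (8) or meningeal fibroblast (5) lists passed, and all 7 oligodendrocyte genes had negative log2 fold changes, with a median of -0.35. The summed level of the 5 meningeal genes was 52.0 to 138 CPM in MRL/mpj mice, 74.8 to 210 in MRL/lpr mice and 50.3 to 85.4 in MRL/lpr+MSC mice. The part of these other cells in the values of the homeostatic genes was not tested.

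**Figure D5:**
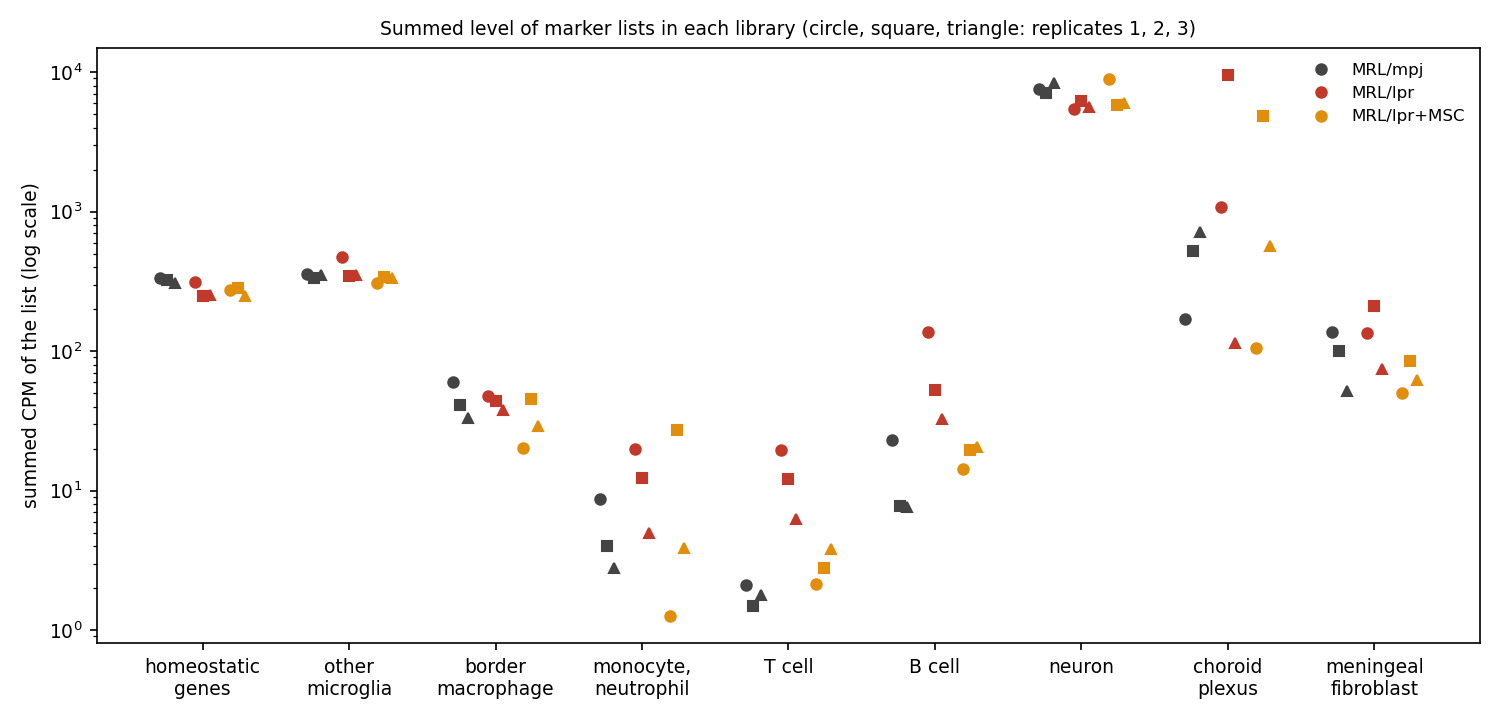
The y axis, on a log scale, gives the summed CPM of each marker list in each library, in the colour of its group, with circles, squares and triangles for replicates 1, 2 and 3. The 9 homeostatic genes sum to 306 to 336 CPM in MRL/mpj libraries and 248 to 313 in the MRL/lpr groups, and the choroid plexus list has the widest range, 105 to 9562 CPM.

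The genes around the lower members were counted as well. In the contrast of both groups, none of the 13 other tested genes within 1 Mb of P2ry12 and none of the 29 within 1 Mb of Fcrls passed. Around Cx3cr1 5 of 32 did, 3 lower and 2 higher, beside 8.65% of all genes. Gorasp1, among those 5, overlaps the annotated span of Cx3cr1.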

How the data were processed

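RNA of 9 hippocampi (3 MRL/mpj, 3 MRL/lpr, 3 MRL/lpr+MSC) was sequenced after poly-A selection. The authors aligned reads with STAR to mm10, counted them with HTSeq and deposited raw gene counts in 1 matrix and FPKM, made from count and gene length, in 1 table per library. GEO's processing notes name TopHat2 and GRCm38. Of the sample columns, 0 had no sample, and 0 entries lacked a gene name. The FPKM tables followed the counts of their own libraries over 12194 genes.

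The 9 genes and the lists beside them were chosen with earlier results of these data known. All 155 listed genes were matched through GENCODE M21 (47224 of 47643 genes overall), and genes of the lists that passed were named unless left out as below, with up to 3 others per list, and the likeness of all other genes to the 9 was ranked by Pearson r, of which the first 10 were considered. Groups came from the labels. Counts were scaled by TMM, trimming 30% of log ratios and 5% of levels, and genes reaching the CPM of 10 counts in a library of median size in at least as many libraries as the smallest group, with 15 counts in all, entered limma voom with robust empirical Bayes moderation in R 4.3.3, using limma 3.58.1 and statmod 1.5.0. Each pair was fitted on its 6 libraries, and the contrast of both MRL/lpr groups on 9. limma voom stands in for the quasi-likelihood count test chosen at the outset, which was not run. Correlations used log2(CPM + 0.5).

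Totals of 19475804 to 26912031 counts set the precision. Within groups, chi-square per gene between libraries was at least 10.7, so no 2 libraries of a group were the same. Alternatives were other scalings, filters, fits and left-out libraries. limma-trend, library quality weights and leaving out the 2 libraries high in choroid plexus genes were added after the data were seen. Some genes of the lists are not reported here.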

Additional observations from a re-analysis of the deposited data

How the results depend on the processing

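Over the 9 genes and 4 comparisons, 531 values were recomputed with other settings, of which 473 kept their direction and their side of the threshold, 27 lost a call, 5 gained one and 26 changed sign, each in a value that had not passed. In the MRL/lpr+MSC comparison with MRL/mpj mice, where 2 of the 9 genes passed, 1 passed with no filter on low counts and 1 with all 9 libraries in 1 fit (Fcrls each time), and 4 with library quality weights. With the replicate number as a block 3, 1, 0 and 3 genes passed in the MRL/lpr, the MRL/lpr+MSC, the within-strain and the combined comparison, and Cx3cr1 was the gene lost in the MRL/lpr+MSC comparison. Whether the replicate numbers pair the libraries was not settled. Of 9 same-numbered pairs, 5 had correlated deviations over 0.1 (range -0.21 to 0.40). The 18 other pairs between groups ranged from -0.44 to 0.23. Leaving out 1 library gave, in the same order, 0 to 4, 0 to 3, 0 to 0 and 1 to 4 genes. The cause was not tested.

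Over all genes, 1523, 792 and 1480 passed in the comparisons with MRL/mpj mice (MRL/lpr, MRL/lpr+MSC, both). Library quality weights gave 3569, 2070 and 4355, and leaving out 1 library gave 163 to 2845, 199 to 2732 and 439 to 2582. The replicate block gave 305 in the MRL/lpr+MSC comparison.

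Signs turned as follows on the log2 scale. In MRL/lpr against MRL/mpj, Csf1r had -0.010 with median-of-ratios and -0.074 with upper-quartile scaling, and -0.11 to 0.10 with 1 library left out, and Siglech had 0.0023 with quality weights. In MRL/lpr+MSC against MRL/mpj, P2ry13 had -0.18 to 0.023 with 1 library left out, and with both groups Csf1r had -0.10 to 0.049. In MRL/lpr+MSC against MRL/lpr, quality weights gave -0.083 for P2ry12, -0.0036 for P2ry13, -0.022 for Gpr34 and -0.039 for Cx3cr1. There, leaving out 1 library gave -0.067 to 0.18 for P2ry12, -0.038 to 0.22 for P2ry13, -0.11 to 0.035 for Tmem119, -0.29 to 0.14 for Sall1, -0.15 to 0.033 for Csf1r, -0.20 to 0.076 for Siglech, -0.15 to 0.17 for Fcrls and -0.039 to 0.16 for Cx3cr1.

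The count-model tests, edgeR's quasi-likelihood test and DESeq2, were not run. With 3 libraries per group, leaving out any control ended the calls of P2ry12 and Cx3cr1 against MRL/mpj mice. limma-trend, library quality weights and leaving out the libraries high in choroid plexus genes were chosen after seeing the data.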
